A study of Homo sapiens with 6 samples.

Results

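Inhibitors of apoptosis (IAPs) and their direct partners were followed at the RNA level in 1205LuTR melanoma cells and in derivatives that grow in the BRAF inhibitor PLX8394. The 9 genes were chosen by name: the IAP genes BIRC2 (encoding cIAP1), BIRC3 (cIAP2), XIAP, BIRC5 (survivin), BIRC6 (BRUCE) and BIRC7 (livin), the IAP antagonist DIABLO (SMAC), and the adaptors TRAF1 and TRAF2. They are 9 of 60617 genes in the files, and 8 of them were among the 16555 genes that passed a filter on low values. BIRC7 did not pass. The 6 RNA-seq libraries comprised 2 of PBRT15 cells in 500 nM PLX8394, 2 of PBRT16 cells in 500 nM PLX8394, and 2 of the drug-sensitive 1205LuTR parental cells in DMSO. 1205LuTR is a GAL4-ELK1 reporter derivative of the BRAF-mutant line 1205Lu, and PBRT (paradox breaker resistant tumor) lines were established from resistant tumors grown in vivo. All 3 were kept in MCDB153-based medium with serum and insulin. Each PBRT line is 1 line, and resistance cannot be told apart from the presence of PLX8394, because no PBRT library without drug and no parental library with drug was analysed here. Whether paired libraries of a line are separate cultures is not labelled, and a p-value here therefore reflects just the variation among these 6 libraries, which may be technical.

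IAP proteins carry a baculovirus IAP repeat, and several also carry a RING domain that attaches ubiquitin. XIAP binds and blocks caspases, the proteases that carry out apoptosis. cIAP1 and cIAP2 act mainly as ubiquitin ligases: brought to the TNF receptor by TRAF2, they ubiquitinate RIPK1 and so favor canonical NF-κB signaling, and in unstimulated cells they help to degrade the kinase NIK (encoded by MAP3K14), which keeps the alternative NF-κB pathway low. BIRC3 and TRAF1 are both textbook NF-κB target genes. SMAC leaves mitochondria during apoptosis and displaces IAPs from caspases, and drugs that mimic its N-terminus deplete the cIAPs.

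Upstream sequences are shown because BIRC3 and TRAF1 moved in opposite directions. RefSeq promoter windows (GRCh38.p14) matched 8 of the 9 genes, all except BIRC5, and the 250 bases before the most upstream start were scanned on both strands for the κB consensus, a 10-base motif, and for the AP-1 motif TGANTCA. BIRC3 held the κB consensus at 2 positions, -199 to -190 and -135 to -126 relative to the start, both read on the strand opposite to the gene. Among 27303 gene promoters of the same length, 9.59% held at least 1 match and 1.62% held at least 2. BIRC6 held 1 match, at -215 to -206, whose letters fit on both strands, and the other 6 windows, TRAF1 and BIRC2 included, held none. The AP-1 motif was in none of the 8 windows, against 6.57% of all promoters. A match describes letters in this window only. The 3 windows that matter most for the results below are printed 5′ to 3′ on the gene's strand, with κB matches in capitals; BIRC3 lies at chr11:102317234-102317483 (plus strand), BIRC2 at chr11:102346964-102347213 (plus strand) and TRAF1 at chr9:120929172-120929421 (minus strand).
BIRC3: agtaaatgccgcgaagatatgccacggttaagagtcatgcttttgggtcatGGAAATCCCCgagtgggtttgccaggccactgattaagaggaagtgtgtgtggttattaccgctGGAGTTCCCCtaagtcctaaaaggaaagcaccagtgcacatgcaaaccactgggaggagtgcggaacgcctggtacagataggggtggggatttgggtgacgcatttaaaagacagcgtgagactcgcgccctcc
BIRC2: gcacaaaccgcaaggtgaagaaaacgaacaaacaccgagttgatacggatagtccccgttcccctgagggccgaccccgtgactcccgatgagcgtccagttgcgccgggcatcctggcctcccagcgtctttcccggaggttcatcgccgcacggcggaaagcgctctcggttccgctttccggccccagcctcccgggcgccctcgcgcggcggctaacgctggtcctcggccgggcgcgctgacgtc
TRAF1: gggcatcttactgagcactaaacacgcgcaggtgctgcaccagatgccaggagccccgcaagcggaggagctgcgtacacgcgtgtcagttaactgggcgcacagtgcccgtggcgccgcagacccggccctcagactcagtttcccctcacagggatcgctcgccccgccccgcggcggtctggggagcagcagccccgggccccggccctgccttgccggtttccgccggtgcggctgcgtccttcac

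Totals of the deposited values ran from 27877963 to 29580752 per library, and the smallest steps in the values put 1 read at about 0.907 to 1.07 units. The melanoma label was held against marker genes. SOX10 had 0 and 0.791 in PBRT15, 1.49 and 0.778 in PBRT16, and 4361 and 4103 in parental cells. The summed level of 9 melanocyte-lineage markers was 876 to 974 in PBRT15, 2219.9 to 2250.4 in PBRT16 and 25242 to 29531 in parental cells. In parental cells S100A1 (14040 and 12928), S100B (10992 and 8075) and SOX10 carried that sum. TYR was at 0 in all. PMEL, MLANA, DCT and TYRP1 were low in every library, parental ones included, with 29.4 the highest (PMEL in PBRT16 replicate 2). MITF alone made up most of the summed level in the PBRT lines, and it rose while SOX10 was near 0. It had 823 and 927 in PBRT15, 2209.5 and 2159 in PBRT16, and 109 and 113 in parental cells (log2 fold changes 2.96 in PBRT15 and 4.28 in PBRT16). The 5 fibroblast markers summed to 113573 to 123218 in PBRT15, 13321 to 18830 in PBRT16 and 5734 to 6742 in parental cells. The sum was carried by COL1A1, COL1A2 and PDGFRA in PBRT15, by COL1A1 and PDGFRA in PBRT16 and by PDGFRA in parental cells. LUM was below 10 throughout. In PBRT16 against parental cells COL1A1 and DCN rose, PDGFRA fell (log2 fold change -0.70, limma adjusted p = 0.0344) and COL1A2 was not called. The sums of both lists move with the contrasts in which TRAF1 and BIRC3 change, and their part in the results that follow was not tested. Of 7 leukocyte markers CD68 carried the sum, while CD3E was at 0 in every library. In bulk RNA, fewer cells expressing a gene and less RNA per cell cannot be told apart.

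BIRC3, which encodes cIAP2, was higher in both resistant lines and far more so in PBRT16. Its normalised values were 347 and 322 in PBRT15, 1866 and 1481 in PBRT16, and 226 and 212 in parental cells. No library of one group overlapped those of another, and even the lower PBRT16 library stood well above every other library. The means were 334 ± 17.5 in PBRT15, 1674 ± 272 in PBRT16 and 219 ± 9.90 in parental cells (SD, n = 2 each). Against parental cells the log2 fold change, on the scale of log2(value + 1), was 2.92 in PBRT16, a 7.55-fold rise (95% interval 5.71 to 9.99), with an adjusted p of 0.000426 by limma with Benjamini-Hochberg adjustment over all tested genes. In PBRT15 it was 0.60, or 1.52-fold (interval 1.15 to 2.01, limma adjusted p = 0.0343). This smaller call was lost when any PBRT15 or parental library was left out (limma adjusted p = 0.0919 to 0.129), and without the filter on low values (adjusted p = 0.102). PBRT16 exceeded PBRT15 by 2.31 on the log2 scale, or 4.97-fold (limma adjusted p = 0.00275).

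TRAF1, an adaptor that binds TRAF2 and cIAPs below TNF family receptors, moved the other way. It had values of 105.5 and 106 in PBRT15, 1071 and 764 in PBRT16, and 7742 and 6081 in parental cells. The 3 groups did not overlap, with every parental library above every PBRT16 library and every PBRT16 library above both of PBRT15. TRAF1 fell by 6.01 on the log2 scale in PBRT15, a level 64.3-fold lower than in parental cells (95% interval of the log2 value -6.57 to -5.44, limma adjusted p = 0.000162). In PBRT16 it fell by 2.92, or 7.58-fold (interval -3.49 to -2.36, limma adjusted p = 0.00101). Against PBRT15, PBRT16 was 3.08 higher on the log2 scale (limma adjusted p = 0.00327). BIRC3 and TRAF1 thus changed in opposite directions against parental cells in both lines, while both were higher in PBRT16 than in PBRT15. Both comparisons with parental cells use the same 2 parental libraries.

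**Figure D1:**
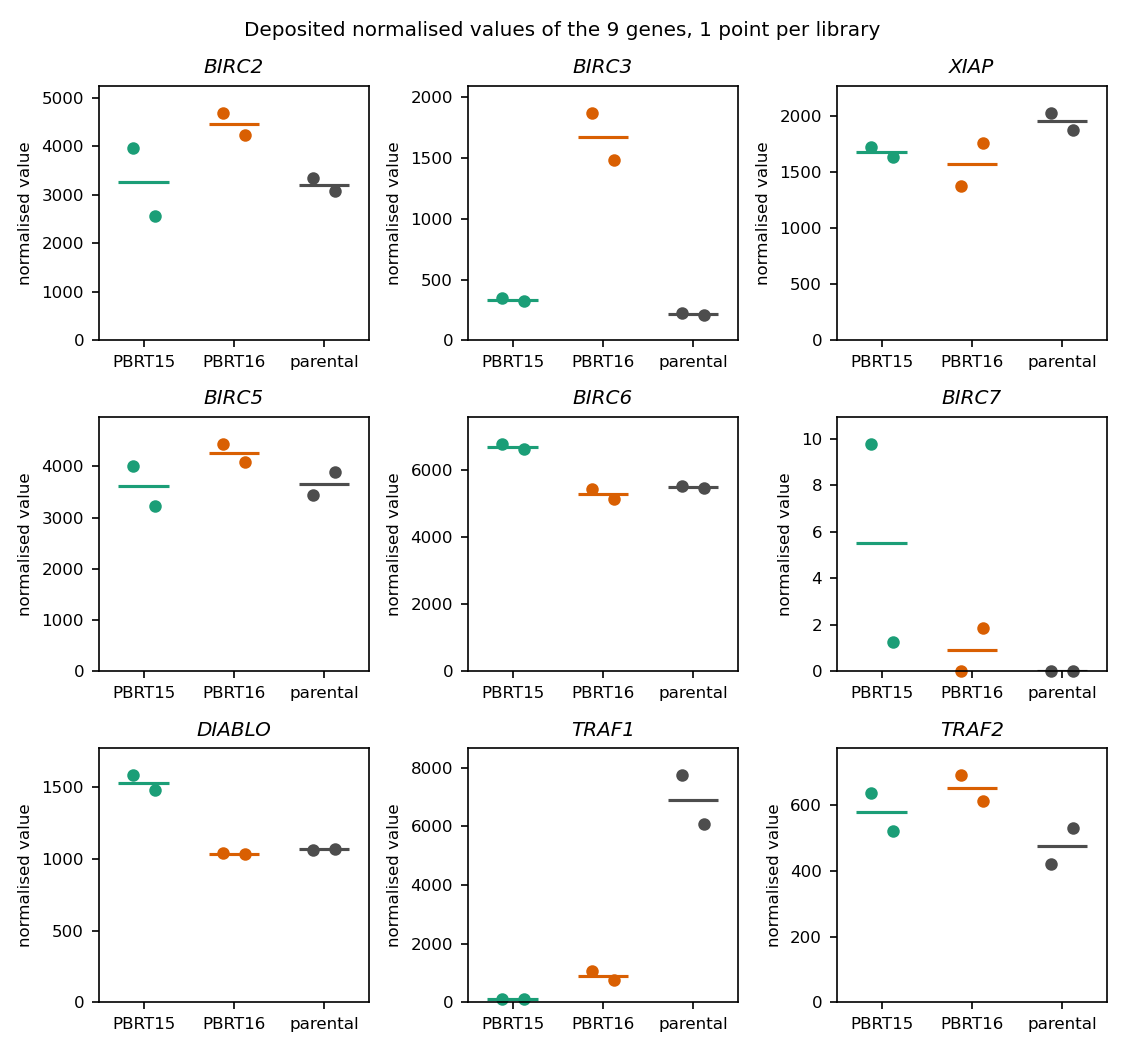
Normalised values as deposited for the 9 genes, with 1 point per library and a bar at the group mean, for PBRT15, PBRT16 and parental cells; each panel has its own vertical axis from 0. BIRC3 is highest in the 2 PBRT16 libraries (1866 and 1481), TRAF1 is highest in the 2 parental libraries (7742 and 6081), and BIRC7 stays below 10 in every library.

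DIABLO, the gene of the IAP antagonist SMAC, was higher in PBRT15 than in parental cells and than in PBRT16. It was at 1579 and 1474 in PBRT15, 1037 and 1032 in PBRT16, and 1061 and 1067 in parental cells. Both PBRT15 libraries lay above the other 4, which spanned a narrow range. The rise in PBRT15 was 0.52 on the log2 scale, or 1.43-fold (95% interval 1.18 to 1.74, limma adjusted p = 0.0195), and PBRT16 was 0.56 lower than PBRT15 on that scale (limma adjusted p = 0.0344). Against parental cells PBRT16 differed by -0.04 (interval -0.32 to 0.24, limma adjusted p = 0.788). Both calls were lost when any library entering them was left out (limma adjusted p = 0.0518 to 0.0752 for PBRT15 against parental cells and 0.0862 to 0.139 between the lines). They were also lost without the filter on low values (adjusted p = 0.0808 for PBRT15 against parental cells and 0.121 between the lines), and the call between the lines also with a replicate block (adjusted p = 0.0615) and with only the 4 PBRT libraries in the fit (adjusted p = 0.0691). On the opposite strand DIABLO overlaps B3GNT4, whose highest value was 72.2, and whether counting used strand is not given in the sources used.

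The remaining IAP genes and TRAF2 did not pass the test in any of the 3 comparisons. BIRC2, the gene of cIAP1, had 3972 and 2561 in PBRT15, 4685 and 4227 in PBRT16, and 3353 and 3072 in parental cells. Its PBRT15 libraries were the widest apart of the pairs and lay on both sides of the parental ones, while both PBRT16 libraries were above all others. In PBRT16 the log2 difference from parental cells was 0.47, with an interval from -0.14 to 1.08 that reaches beyond a doubling (limma adjusted p = 0.171). XIAP, the caspase inhibitor, had 1719.8 and 1637 in PBRT15, 1374 and 1759.9 in PBRT16, and 2023 and 1877 in parental cells. All 4 PBRT libraries were below both parental libraries, with log2 differences of -0.22 in PBRT15 (interval -0.63 to 0.20) and -0.33 in PBRT16 (interval -0.74 to 0.09), and neither passed (limma adjusted p = 0.33 in PBRT15 and 0.166 in PBRT16). TRAF2, the adaptor that carries cIAPs to receptors, had 637 and 521 in PBRT15, 690 and 611 in PBRT16, and 421 and 531 in parental cells. PBRT15 and parental values overlapped, and for PBRT16 the log2 difference was 0.46 (interval -0.02 to 0.93, limma adjusted p = 0.109).

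BIRC5 and BIRC6 stand apart from the cIAPs in function. Survivin, the BIRC5 product, works in mitosis as part of the chromosomal passenger complex. BIRC5 had 3999.8 and 3225 in PBRT15, 4432 and 4088 in PBRT16, and 3437 and 3894 in parental cells. The PBRT15 and parental values overlapped, and the log2 difference of PBRT16 from parental cells was 0.22 (interval -0.19 to 0.63, limma adjusted p = 0.32). BIRC6, a giant ubiquitin-conjugating IAP, had 6761 and 6619 in PBRT15, 5443 and 5136 in PBRT16, and 5504 and 5470.1 in parental cells. PBRT15 stood above the other 4 libraries, by 0.29 on the log2 scale against parental cells (interval 0.01 to 0.57), which did not pass over all genes (limma adjusted p = 0.0933). With the prior spread allowed to depend on expression level it did (adjusted p = 0.0295), as did the difference of -0.34 between PBRT16 and PBRT15 (adjusted p = 0.0289, against 0.104). BIRC7, an IAP known from melanoma, had 9.77 and 1.26 in PBRT15, 0 and 1.86 in PBRT16, and 0 in both parental libraries. These are values of few reads, so a difference was not detectable at this depth.

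Counts of calls stand here beside the share over all tested genes. In PBRT15 against parental cells 2 of the 8 tested genes rose, where 21.6% of all tested genes rose, and 1 fell, where 19.5% fell. In PBRT16 against parental cells 1 rose, with 21.1% of all genes rising, and 1 fell, with 19% falling. PBRT16 was higher than PBRT15 for 2 of the 8, with 7.5% of all genes higher, and lower for 1, with 8.28% lower. Groups did not overlap for 5 of the 8 in PBRT15 against parental cells, where 74.9% of all tested genes were apart. For PBRT16 the count was 8 of 8 (76.1% of all genes), and between the PBRT lines it was 6 of 8 (62.7%). With 2 libraries a group such separation is common, which is why it was not read as a call.

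**Figure D2:**
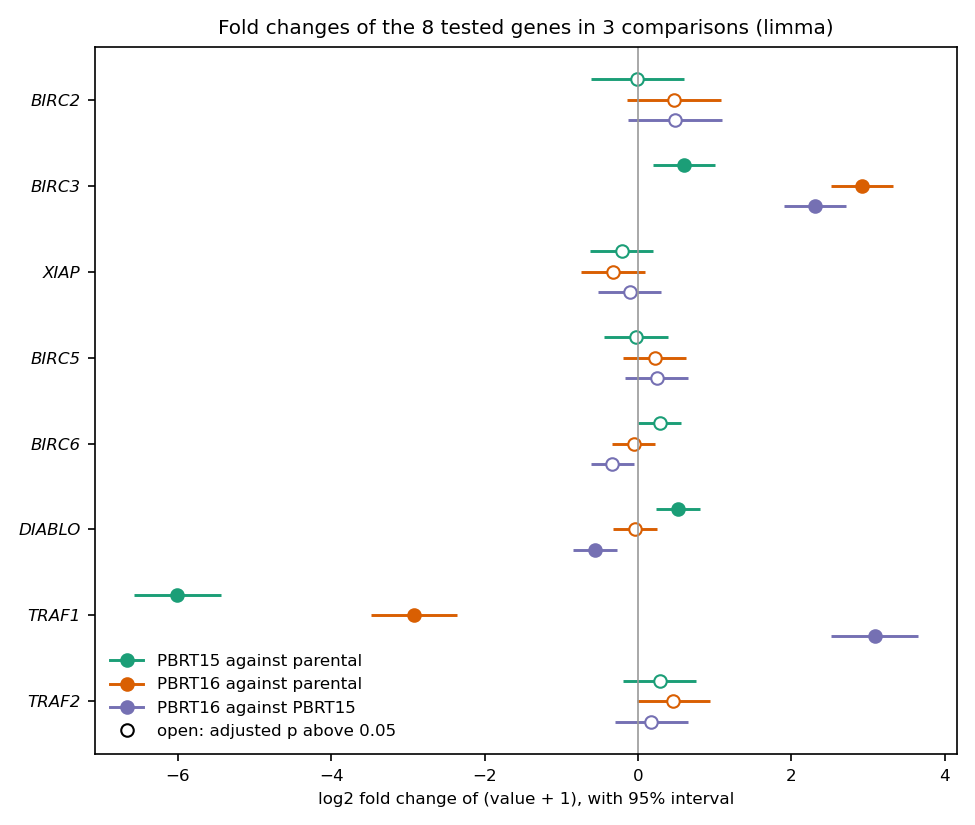
Log2 fold changes of the 8 tested genes, on the scale of log2(value + 1), with 95% intervals, for PBRT15 against parental, PBRT16 against parental and PBRT16 against PBRT15; filled points passed an adjusted p of at most 0.05 in limma. TRAF1 lies at -6.01 and -2.92 against parental cells and BIRC3 at 0.60 and 2.92, while the intervals of BIRC2, XIAP, BIRC5 and TRAF2 cross 0 in every comparison.

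The place of BIRC3 among the IAP transcripts was compared per kb of the longest annotated transcript, since raw values grow with gene length. In these units BIRC3 averaged 48.6 ± 2.55 in PBRT15, 243 ± 39.6 in PBRT16 and 31.9 ± 1.44 in parental cells (SD, n = 2 each). BIRC2 averaged 802 ± 245 per kb in PBRT15, 1094 ± 79.4 in PBRT16 and 789 ± 48.8 in parental cells. BIRC3 was therefore at 6.30% ± 1.61 of BIRC2 in PBRT15, 22.2% ± 2.01 in PBRT16 and 4.05% ± 0.0676 in parental cells. The cIAP1 transcript was the more abundant of the pair in all 6 libraries. Relative to XIAP, BIRC3 stood at 24.8% ± 0.44 in PBRT15, 137% ± 45.6 in PBRT16 and 14.1% ± 0.11 in parental cells, so that in PBRT16 it exceeded XIAP per kb in both libraries (170% and 105.1%). BIRC5 had the highest level per kb of the 9 in PBRT15 (1332 ± 202) and PBRT16 (1571 ± 89.7), and was second in parental cells (1352 ± 119), where TRAF1 was highest (1589 ± 269.9). In parental cells the spreads of BIRC5 and TRAF1 overlap, so these neighbours in the order did not differ beyond their spread. This rests on the length used, since with the length of all annotated exons TRAF1 was at 1544 ± 262 and BIRC5 at 961 ± 84.7 in parental cells, which do not overlap.

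TRAF1 ranked 8 of 9 per kb of longest transcript in PBRT15, 7 in PBRT16 and 1 in parental cells, and with all exons it ranked 5 in PBRT16. It was at 24.3 ± 0.0849 in PBRT15, 211 ± 49.9 in PBRT16 and 1589 ± 269.9 in parental cells. TRAF2 was at 256 ± 36.1 in PBRT15, 287 ± 24.7 in PBRT16 and 209.9 ± 34.2 in parental cells. TRAF1 was thus at 9.61% ± 1.39 of TRAF2 in PBRT15, 73% ± 11.1 in PBRT16 and 777% ± 255 in parental cells. With the length of all annotated exons in place of the longest transcript these became 15.1% in PBRT15, 115% in PBRT16 and 1222% in parental cells, so in PBRT16 which of the 2 adaptors is more abundant depends on the length used. The order of the groups was the same with both lengths.

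**Figure D3:**
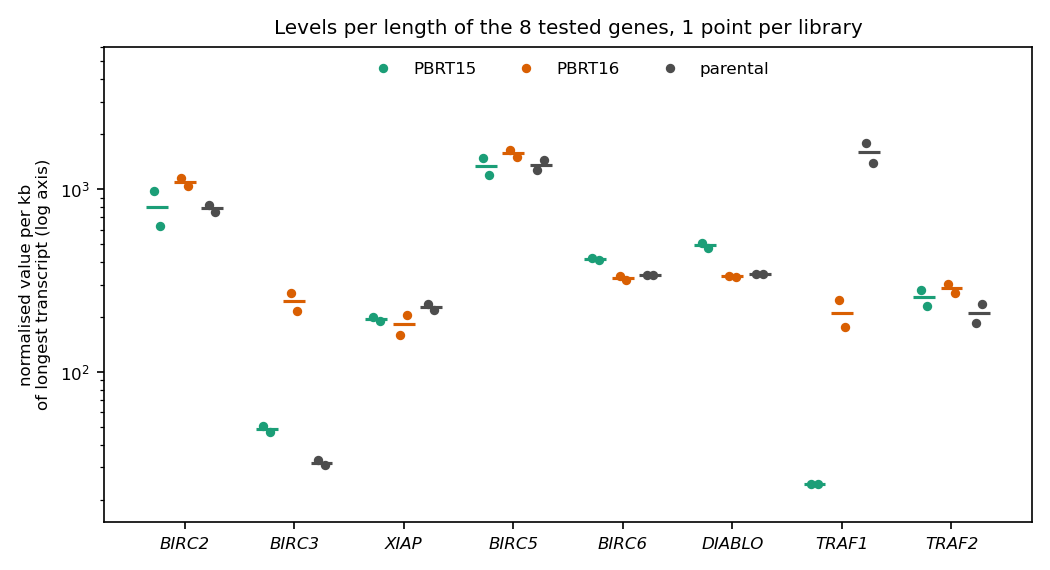
Normalised value per kb of the longest annotated transcript, on a log axis, for the 8 tested genes, with 1 point per library and a bar at the group mean (PBRT15, PBRT16 and parental from left to right). TRAF1 runs from 24.3 in PBRT15 to 1589 in parental cells, BIRC3 reaches 243 in PBRT16, and BIRC5 and BIRC2 stay near the top in all groups.

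BIRC3 and BIRC2 are neighbours on the same strand of chromosome 11, with BIRC3 at chr11:102317484-102339403 and BIRC2 at chr11:102347211-102378670 (GRCh38, GENCODE 44), 7.81 kb apart. Of the tested genes within 100 kb of BIRC3, BIRC2 and the transcription coactivator YAP1 did not pass in either line, and TMEM123, which encodes a cell-surface mucin-like protein, rose in both. TMEM123 had 11527 and 10315 in PBRT15, 15902 and 14248 in PBRT16, and 7481 and 8180.4 in parental cells, and the 3 groups did not overlap. Its log2 fold change was 0.94 in PBRT16 (limma adjusted p = 0.00606) and 0.48 in PBRT15 (limma adjusted p = 0.0424). Within 1 Mb of BIRC3, 10 other genes were tested, with 3 rises and 2 falls in PBRT16 (21.1% and 19% over all tested genes). PBRT15 had 2 rises and 1 fall (21.6% and 19.5%). The median log2 fold changes were 0.63 in PBRT16 and 0.04 in PBRT15, beside 0.00 and -0.01 over all tested genes. The rises in PBRT16 include MMP7 (13.8 and 19.3 in PBRT16, 2.16 and 0 in parental cells). The falls in both lines include MMP8 (103 and 53.8 in parental cells). Each passed the filter only through the group where it is high.

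**Figure D4:**
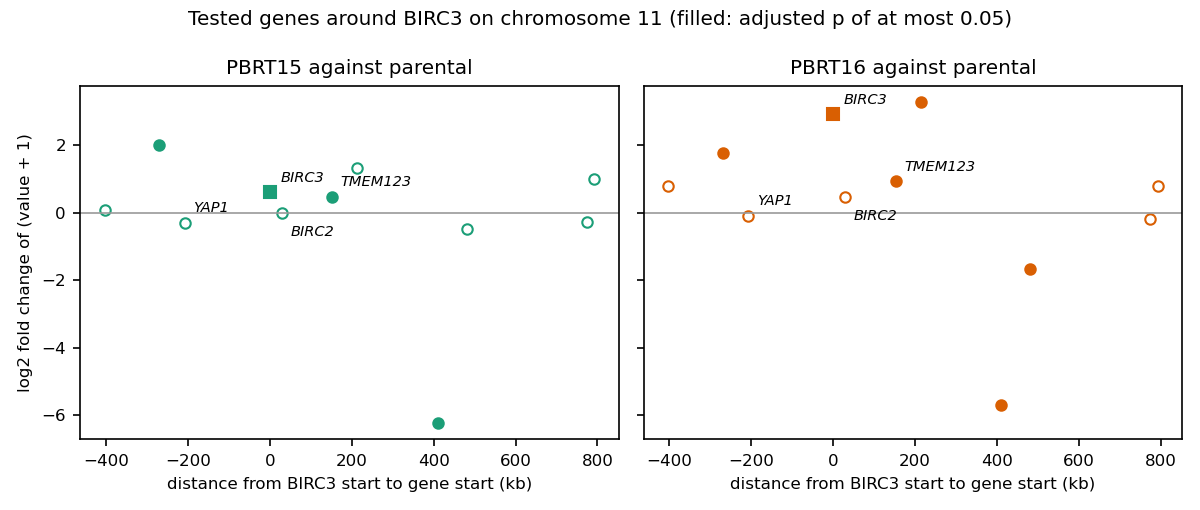
Log2 fold change of each tested gene within 1 Mb of BIRC3, on the scale of log2(value + 1), against the distance in kb from the start of BIRC3 (square) to the start of the gene, for PBRT15 against parental (left) and PBRT16 against parental (right); filled points passed an adjusted p of at most 0.05. BIRC3 stands at 2.92 in PBRT16, with BIRC2 at 0.47 and TMEM123 at 0.94 beside it.

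DIABLO lies on the minus strand at chr12:122207663-122227456, in a stretch where many genes were higher in PBRT15. Of 36 other tested genes within 1 Mb, 21 rose and 1 fell in PBRT15 (21.6% and 19.5% over all tested genes), with a median log2 fold change of 0.49, which is close to the 0.52 of DIABLO itself. In PBRT16 12 of the same 36 rose and 7 fell, with a median of 0.11. Over all tested genes the median was -0.01 in PBRT15 and 0.00 in PBRT16. Among those within 100 kb, VPS33A, a vacuolar sorting gene that ends 2.11 kb from DIABLO, had 608 and 632 in PBRT15, 389 and 379 in PBRT16, and 477 and 381 in parental cells. VPS33A was 0.54 higher in PBRT15 than in parental cells (limma adjusted p = 0.0411) and 0.69 lower in PBRT16 than in PBRT15 on the log2 scale (limma adjusted p = 0.0428), the same 2 calls as DIABLO. The other tested genes within 100 kb did not share this pattern. CLIP1 and MLXIP rose in both lines and did not pass between them (limma adjusted p = 0.805 and 0.381). B3GNT4 did not pass in any comparison. Around TRAF1 (chr9:120902393-120929173) 15 genes were tested within 1 Mb, of which 1 rose and 6 fell in each line (21.6% rose and 19.5% fell over all tested genes in PBRT15, 21.1% and 19% in PBRT16), with medians of -0.54 in PBRT15 and -0.58 in PBRT16. The other genes lie at chrX:123859712-123913972 (XIAP), chr17:78214186-78225636 (BIRC5), chr2:32357023-32619571 (BIRC6), chr20:63235883-63240495 (BIRC7) and chr9:136881912-136926607 (TRAF2).

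A short list of IAP antagonists and regulators was read next. It held XAF1, SEPTIN4 (whose ARTS isoform binds XIAP), the mitochondrial protease HTRA2 and the translation factor GSPT1. Its 5th gene was RFFL, a ligase known for acting on caspases rather than for restraining IAPs. In PBRT15 2 of the 5 rose, XAF1 and SEPTIN4, and 1 fell (21.6% and 19.5% over all tested genes). In PBRT16 the called genes besides XAF1 were SEPTIN4, which rose, and RFFL, which fell (21.1% and 19% over all tested genes). Without either parental library in turn, 0 of the 5 passed in PBRT16. XAF1, an interferon-inducible XIAP antagonist, had 2133 and 2194 in PBRT15, 7.39 and 2.62 in PBRT16, and was listed at 0 in both parental libraries. It was called in PBRT15 against parental cells and between the lines, but no fold is given against a group at 0. XAF1 passed the filter on low values only through PBRT15, the group where it is high, so these calls are not used as support. Its values in PBRT16 are of few reads, so no call is read for PBRT16 against parental cells. Between the lines, XAF1 was 8.62 lower in PBRT16 on the log2 scale, a value that rests on those few reads. SEPTIN4 had 276 and 414 in PBRT15, 146 and 227 in PBRT16, and 80.1 and 61 in parental cells, and rose in both (log2 fold changes 2.26 in PBRT15 and 1.37 in PBRT16, limma adjusted p = 0.00608 and 0.0261). RFFL had 333 and 309 in PBRT15, 388 and 352 in PBRT16, and 495 and 519 in parental cells, and fell in both (limma adjusted p = 0.0131 in PBRT15 and 0.0379 in PBRT16). The RFFL fall in PBRT15 was lost without either parental library and without PBRT15 replicate 2. HTRA2 and GSPT1 did not pass. Of the other IAP genes, BIRC8 was listed at 0 in every library, and NAIP, a sensor of bacterial proteins, had 149 and 204 in PBRT15, 261 and 241 in PBRT16, and 133 and 109 in parental cells. NAIP rose in PBRT16 (log2 fold change 1.06, limma adjusted p = 0.0151), with the reserve that NAIP has near-identical genomic copies among which reads can be split.

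MAP3K14, the kinase NIK that cIAPs and TRAF2 keep low at the protein level, rose at the RNA level in both lines. It had 1245 and 1315 in PBRT15, 2962 and 2445 in PBRT16, and 309.9 and 321 in parental cells. The groups were far apart and ordered as for BIRC3, with PBRT16 highest. The log2 fold changes were 2.02 in PBRT15 and 3.09 in PBRT16 (limma adjusted p = 0.000841 in PBRT15 and 0.000278 in PBRT16), and PBRT16 exceeded PBRT15 by 1.07 (limma adjusted p = 0.0142). NFKB2, the subunit that NIK signaling processes, had 560.04 and 722 in PBRT15, 1458 and 1240.2 in PBRT16, and 674 and 724 in parental cells. It rose in PBRT16 by 0.94 on the log2 scale (limma adjusted p = 0.0138) and was not called in PBRT15. NFKB1, the precursor of the canonical p50 subunit, fell to 614 and 696 in PBRT15 and 870.2 and 856 in PBRT16, against 1806 and 1812 in parental cells (log2 fold changes -1.47 in PBRT15 and -1.07 in PBRT16, limma adjusted p = 0.00129 and 0.00312). The subunit RELA was higher in every PBRT library, with 1344 and 1259 in PBRT15, 1615 and 1676 in PBRT16, and 867 and 1082 in parental cells. RELB had 97.1 and 160 in PBRT15, 183 and 134 in PBRT16, and 82.7 and 131 in parental cells. NFKBIA rose in PBRT15. The subunits thus do not divide into 1 pathway up and 1 down. BCL3, an atypical IκB protein, rose in both (log2 fold changes 2.92 in PBRT15 and 2.06 in PBRT16, limma adjusted p = 0.00282 and 0.00779), and NFKBIE and IKBKB fell in both. Of 13 NF-κB kinases and subunits, all tested, PBRT15 had 4 that rose and 4 that fell (21.6% and 19.5% over all tested genes), and PBRT16 had 5 that rose and 3 that fell (21.1% and 19%). The median over the list stood at 0.26 in PBRT15, where that of all tested genes was -0.01, and at 0.58 in PBRT16, where that of all tested genes was 0.00. Leaving out 1 library at a time, an alternative added after the data were seen, the median ranged from -0.10 (without PBRT15 replicate 2) to 0.49 (without parental replicate 2) in PBRT15, and was -0.07 without parental replicate 1, so its sign in PBRT15 rests on single libraries. In PBRT16 it ranged from 0.25 (without parental replicate 1) to 0.74 (without PBRT16 replicate 2).

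In the TRAF family besides TRAF1 and TRAF2, 8 of 9 genes were tested. PBRT15 showed 2 rises and 1 fall, beside shares of 21.6% and 19.5% over all tested genes. The counts were the same in PBRT16, beside shares of 21.1% and 19%. TRAF4, a family member known mainly from cell polarity and migration, fell to 821 and 882 in PBRT15 and 736 and 634 in PBRT16, against 1353 and 1371 in parental cells (log2 fold changes -0.68 in PBRT15 and -0.99 in PBRT16, limma adjusted p = 0.0146 and 0.00482). TRAFD1 and TRAF7 rose in both lines. With 1 library left out, not all of these rises kept their call in either line, and the TRAF4 fall in PBRT15 was not always kept. TRAF3, which bridges NIK to the cIAP-TRAF2 complex, did not pass, with 1262 and 1279.8 in PBRT15, 1421 and 1514 in PBRT16, and 1092 and 1369 in parental cells. TRAF5, TRAF6 and the TRAF-binding TANK did not pass either.

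Receptors of the TNF family and the complexes formed on them were read next. Of 18 tested genes of TNF receptor complexes and necroptosis, PBRT15 had 6 that rose and 3 that fell, and PBRT16 had 7 that rose and 3 that fell, beside 21.6% and 19.5% of all tested genes in PBRT15 and 21.1% and 19% in PBRT16. The median log2 fold changes were 0.21 in PBRT15 and 0.11 in PBRT16, and without 1 library at a time 0.10 to 0.28 in PBRT15 and 0.01 to 0.21 in PBRT16. CYLD, which removes the ubiquitin chains that cIAPs and LUBAC build, had 1039 and 1131 in PBRT15, 1797 and 1724 in PBRT16, and 509.7 and 599.5 in parental cells, and it rose in both (limma adjusted p = 0.00588 in PBRT15 and 0.00129 in PBRT16). TRADD, the adaptor of TNF receptor 1, rose in both too, and the CYLD partner SPATA2 fell in both. RIPK3, the kinase of necroptosis, was listed at 0 in all 6 libraries. Of 14 tested death ligands and receptors out of 23, PBRT15 had 5 that rose and 5 that fell (21.6% and 19.5% over all tested genes). PBRT16 had 4 that rose and 4 that fell (21.1% and 19%). These rises include the ligand gene TNFSF15, which had 9.47 and 2.47 in PBRT15, 16.3 and 18.7 in PBRT16, and was listed at 0 in both parental libraries, so that its values are of few reads and it passed the filter only through PBRT16. TNFRSF1A, which encodes TNF receptor 1, had 6428 and 7137 in PBRT15, 3369 and 4094 in PBRT16, and 2339 and 2176 in parental cells, and rose in both (log2 fold changes 1.59 in PBRT15 and 0.72 in PBRT16, limma adjusted p = 0.00191 and 0.019). TNFRSF1B, encoding TNF receptor 2, fell in both, and TNFRSF14 rose in both. TNF itself was at 0 and 5.71 in PBRT15, 0 and 0.934 in PBRT16, and 0 in both parental libraries.

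Downstream, 9 of 10 caspase and apoptosome genes were tested. There were 3 rises and 3 falls in PBRT15 (21.6% and 19.5% over all tested genes), with 2 rises and 2 falls in PBRT16 (21.1% and 19%). CASP4, an inflammatory caspase, had 563 and 659 in PBRT15, 704 and 1033 in PBRT16, and 97.8 and 123 in parental cells (log2 fold changes 2.46 in PBRT15 and 2.95 in PBRT16, limma adjusted p = 0.00211 and 0.00129). CASP9, the initiator caspase that XIAP blocks, fell in both lines, to 60.6 and 65 in PBRT15 and 87.6 and 97.3 in PBRT16, against 122 and 146 in parental cells (limma adjusted p = 0.00509 in PBRT15 and 0.0402 in PBRT16). APAF1, the scaffold that activates caspase-9, rose in PBRT15 by 0.54 (limma adjusted p = 0.0363) and fell by 0.59 in PBRT16 (limma adjusted p = 0.0285) on the log2 scale. Neither the CASP9 nor the APAF1 fall in PBRT16 kept its call without either parental library or without PBRT16 replicate 1. In PBRT15 too, not every rise and fall of the list was kept with 1 library left out.

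Among 23 genes of the chromosomal passenger complex and mitosis, the setting in which survivin acts, 0 rose and 1 (HASPIN, a histone H3 kinase) fell in PBRT15. PBRT16 had 0 calls in either direction by limma, the only test run. At an unadjusted p under 0.05 the count was 0 higher and 2 lower in PBRT15 and 0 higher and 4 lower in PBRT16. The median log2 fold changes were -0.33 in PBRT15 and -0.45 in PBRT16, where those of all tested genes were -0.01 and 0.00. In each PBRT line the second library was below the first for 23 of the 23 genes, and the medians moved with it. The PBRT15 median was -0.13 without PBRT15 replicate 2 and -0.47 without PBRT15 replicate 1, and the PBRT16 median was -0.13 without PBRT16 replicate 2 and -0.68 without PBRT16 replicate 1. AURKB, INCENP and CDCA8, which with survivin make up the complex, differed from parental cells by -0.29, -0.33 and 0.05 in PBRT15 and by -0.35, -0.45 and -0.26 in PBRT16, without passing. For BIRC5 the corresponding values were -0.03 in PBRT15 and 0.22 in PBRT16.

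**Figure D5:**
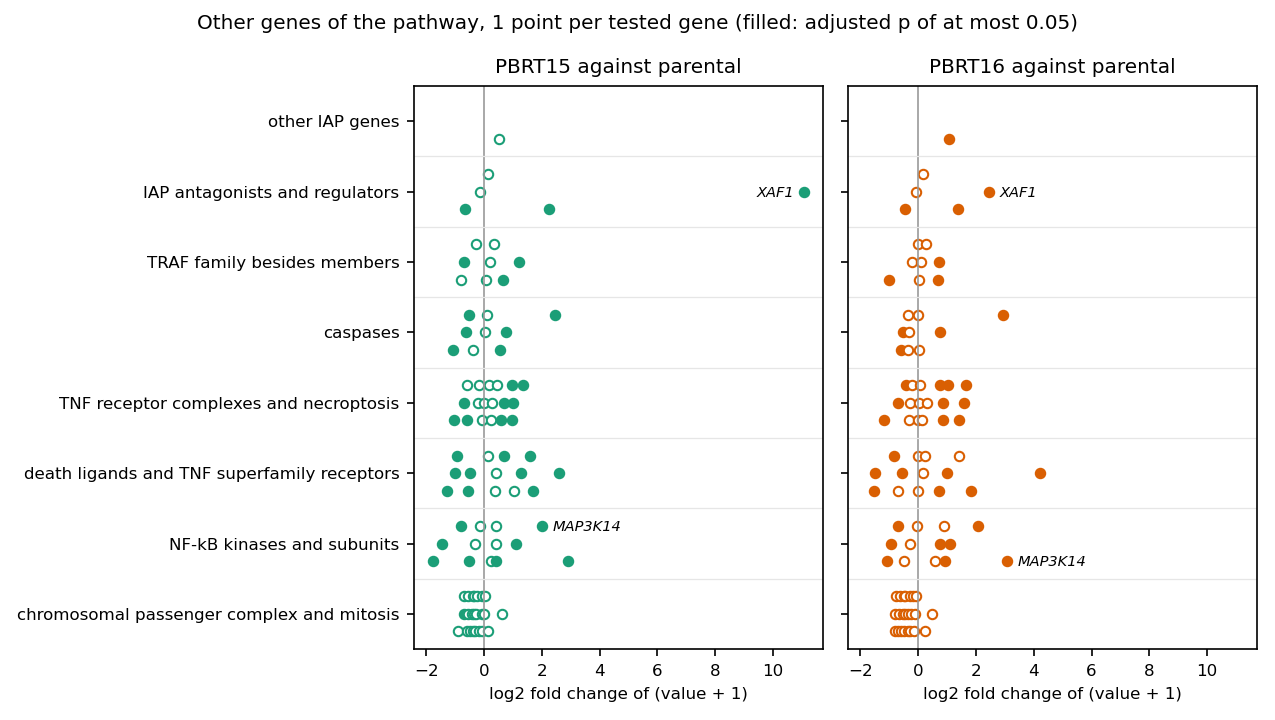
Log2 fold change, on the scale of log2(value + 1), of each tested gene in 8 lists around the IAPs, for PBRT15 against parental (left) and PBRT16 against parental (right); filled points passed an adjusted p of at most 0.05, and the vertical offset within a list only separates points. XAF1 lies far to the right in PBRT15, where it is measured against parental libraries listed at 0, MAP3K14 lies at 2.02 and 3.09, and the mitosis genes gather left of 0 with 1 filled point in PBRT15.

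Over the 6 libraries, the genes whose profile lay nearest to that of BIRC3, by root mean square distance of centred log2(value + 1), were IL31RA (0.232), SLITRK5 (0.274), MIR181A2HG (0.28), LINC02762 (0.291) and TRIM16 (0.291). IL31RA, a cytokine receptor subunit, had 138 and 186 in PBRT15, 883 and 877 in PBRT16, and 87.6 and 102 in parental cells. Likeness over 6 libraries of 3 groups is a description of these libraries.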

How the data were processed

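RNA-seq values of 6 libraries were analysed, 2 per group, grouped by their labels. According to the methods, the authors sequenced stranded mRNA libraries and used RSEM with GRCh38 and GENCODE to quantify genes. STAR 2.6.1a, Picard and DESeq2 are further tools in the submitters' processing notes. The deposited values are a normalized signal per gene on a common scale. They are not whole numbers, and only 45% to 67.6% of low values lay within 0.1 of a whole multiple of the smallest step, so reads were not recovered and no count test was run. How the authors normalized them is not given in the sources used, and this could shift single genes.

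Gene IDs were matched to GENCODE 44 (60357 of 60617), without 45 pseudoautosomal copies. The filter on low values required 10 or more, after scaling to the median library total, in 2 or more libraries, and a sum of 15 or more. A single limma 3.58.1 fit (R 4.3.3) to log2(value + 1) covered the 3 groups and all 6 libraries (3 residual degrees of freedom, 1.89 from the prior), with Benjamini-Hochberg adjustment over 16555 genes and a call at an adjusted p of at most 0.05. No replicate block was used. The steps were tested on simulated data. Promoter windows came from RefSeq (GRCh38.p14). Other settings tried were the pseudocount, the filter, the scaling, the prior, a replicate block, fits of 4 libraries, a fold of 2, the gene length, and leaving out each library (for medians over a list, added after the data were seen). The members and gene lists were chosen with earlier results of these data known. Besides the 9 genes, the rule for named genes covers from each list the 3 largest rises and falls in each line, the members of the lists of IAP, antagonist and TRAF genes, the 5 genes nearest to BIRC3 in profile and genes within 100 kb of a member, and the text names only part of the genes that meet it. The list genes RIPK3, TNF, AURKB, INCENP, CDCA8, NFKB2, RELA and RELB were added after their values were seen. So were B3GNT4, MMP7, MMP8 and the genes that the test between the PBRT lines called.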

Additional observations from a re-analysis of the deposited data

Results flagged for a closer look

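Among the 9 genes and the genes of the pathway lists, 16 differed between the PBRT lines. For each, the test of PBRT16 against PBRT15 itself passed at an adjusted p of at most 0.05 (limma, 6 libraries, Benjamini-Hochberg over all tested genes). The effects of the lines against the same parental libraries thus differed. Tested were 8 of the 9 genes and 1, 5, 8, 9, 18, 14, 13 and 23 genes of the 8 lists. Over all tested genes 7.5% were higher and 8.28% lower in PBRT16 than in PBRT15, so the count alone is not read as a result. Among the 9 genes, the log2 difference of PBRT16 minus PBRT15 was 2.31 for BIRC3, 3.08 for TRAF1 and -0.56 for DIABLO.

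Between the lines, the apoptosome scaffold APAF1 differed by -1.13. The IAP antagonist XAF1 differed by -8.62, a value that rests on few reads in PBRT16, and it passed the filter only through PBRT15. In the linear ubiquitin machinery, RNF31 and RBCK1, which encode subunits of the LUBAC ligase, differed by -0.77 and -0.57, and the deubiquitinases OTULIN and CYLD by 0.63 and 0.70. TNIP1, a ubiquitin-binding brake on NF-κB, differed by 1.11. Among death receptors the values were -0.87 for TNFRSF1A, -1.03 for TNFRSF21 and -1.14 for FAS, all lower in PBRT16. Of the NF-κB genes, MAP3K14 differed by 1.07, IKBKG by 0.68 and NFKB2 by 1.08, all higher in PBRT16. RNF31 had 625 and 527 in PBRT16, 1067 and 891 in PBRT15, and 740 and 700.1 in parental cells, and was called against parental cells in neither line. FAS had 320.3 and 334 in PBRT16, against 741 and 708 in PBRT15, and 254 and 340.3 in parental cells.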

How the results depend on the processing

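Over 16 other settings, 357 of 384 values of the 8 tested genes kept their direction and their side of the threshold, 19 lost a call, 2 gained one and 6 changed sign. The calls of BIRC3 in PBRT16 against parental cells and against PBRT15, and all 3 calls of TRAF1, held under every setting run. Sign changes were of genes that were not called. BIRC2 in PBRT15 against parental cells was 0.00196 with median-of-ratios scaling. It ranged from -0.33 to 0.31 with 1 library left out, and was above 0 without parental replicate 1 or PBRT15 replicate 2. BIRC5 in the same comparison ranged from -0.18 to 0.13, with 0.0635 without parental replicate 2. XIAP in PBRT16 against PBRT15 ranged from -0.29 to 0.069 with 1 library left out.

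The number of the 9 genes called in PBRT15 against parental cells was 1 in place of 3 without the filter on low values, with a fold of at least 2, and also with each PBRT15 or parental library left out. Per kb of all exons, BIRC3 was at 25.3% of XIAP in PBRT15 and 14.3% in parental cells, and at 4.12% of BIRC2 in parental cells, while TRAF1 was at 15.1% of TRAF2 in PBRT15, 115% in PBRT16 and 1222% in parental cells. With the replicate number as a block, the count of called genes was 3 in PBRT15 against parental cells, 2 in PBRT16 against parental cells and 2 in PBRT16 against PBRT15. Same-numbered libraries deviated together with r = 0.018, 0.0384 and 0.136 over genes, and nothing in the labels pairs them. Depth limits BIRC7, at fewer than 10 units in every library.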
